A study of Nothobranchius furzeri with 8 samples.

Results

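The miRNA families mir-430 and mir-202 were followed in brain small RNA libraries of the turquoise killifish (Nothobranchius furzeri), an annual fish with a short life. All fish were males of the strain MZM-04/10p. They are 2 of the 324 features counted in each library, of which 235 were named families and 89 predicted miRNAs. Both were taken by name and were selected on their measured counts, which were higher at 26 weeks than at 6 weeks, so the difference between the ages is given below as a description, with no test. There were 8 libraries, 4 at 26 weeks and 4 at 6 weeks, numbered I to IV at each age. No treatment or allele is given for either age. The number 22 stands in the titles of the older libraries, but grouping went by their age label of 26 weeks, which the series design shares. The labels do not say that each library came from a separate fish, so the spread between libraries could in part be technical.

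In zebrafish, mir-430 is made from many gene copies when the embryo switches on its own genome, and it marks maternal transcripts for loss of their poly(A) tail and decay. Its seed, the short 5′ stretch that pairs with targets, is related to that of mir-17 and of the stem cell family mir-302. The family mir-202 is known as a gonad miRNA of vertebrates: it is found in ovary and testis, its loss lowers egg production in medaka, and the seed of its 3p arm resembles that of let-7. Neither family is a usual brain marker. The table named families without arms or positions, so which arm or gene copy gave the counts cannot be seen.

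Library totals ran from 3347810 to 5715409 counts at 26 weeks and from 2992917 to 4151620 at 6 weeks. The brain families mir-124, mir-9, mir-128, mir-138 and mir-219 summed to 134552 to 153460 CPM in the 26-week libraries and 137832 to 154304 CPM in the 6-week libraries. Most of that sum is mir-9 and mir-128. The families mir-124 and mir-219 rose by 0.92 ± 0.21 and 1.39 ± 0.28 (log2, SE, edgeR, Benjamini-Hochberg adjusted p = 0.0167 and 0.0126). So 2 of the 5 were called higher, next to 10.4% of all tested features. Scaled by total counts alone, mir-219 did not pass (edgeR, Benjamini-Hochberg adjusted p = 0.0579). CPM here is the usual count scaled to library size, after TMM scaling, a factor that lines up the bulk of the features between libraries. Members' counts come without molecular identifiers, so the 95% intervals given with them, exact Poisson intervals, cover counting error only.

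Both families were scarce and were counted in 8 of 8 libraries. By mean CPM over all libraries, mir-430 ranked 158 and mir-202 ranked 160 of 324 features. Counts of mir-430 summed to 288 at 26 weeks and 73 at 6 weeks, or 0.00152% and 0.000541% of all counts of each age. Counts of mir-202 summed to 254 at 26 weeks and 97 at 6 weeks, or 0.00134% and 0.000719%. A count of 0 in 1 library would have allowed up to 3 counts, which is 0.609 to 0.805 CPM at 26 weeks and 0.710 to 0.921 CPM at 6 weeks, so every value below lies above that floor.

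For mir-430, the 26-week libraries I to IV held 62, 114, 31 and 81 counts, and the 6-week libraries I to IV held 21, 17, 19 and 16. In CPM these were 16.6, 23.2, 6.56 and 20.5 at 26 weeks, against 6.03, 4.79, 4.49 and 4.91 at 6 weeks. The older libraries I, II and IV were high, while the older library III sat just above the highest younger library. The 95% interval of library III at 26 weeks ran from 4.46 to 9.31 CPM, and those of the other 3 older libraries began at 12.8, 19.1 and 16.3 CPM. The mean level of mir-430 was 16.7 ± 7.29 CPM at 26 weeks and 5.06 ± 0.673 CPM at 6 weeks (SD, n = 4 each).

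For mir-202, the 26-week libraries I to IV held 48, 71, 72 and 63 counts, and the 6-week libraries I to IV held 17, 30, 29 and 21. In CPM these were 12.9, 14.4, 15.2 and 15.98 at 26 weeks, against 4.88, 8.45, 6.86 and 6.45 at 6 weeks. The older libraries lay close together, and the lowest of them was above the highest younger library. With TMM scaling, 14.2% of the 212 tested features had all older libraries above all younger ones. The choice of both families favoured such a gap, so nothing is read from it. The intervals of the older libraries began between 9.50 and 12.3 CPM. The mean level of mir-202 was 14.6 ± 1.33 CPM at 26 weeks and 6.66 ± 1.47 CPM at 6 weeks (SD, n = 4 each).

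**Figure D1:**
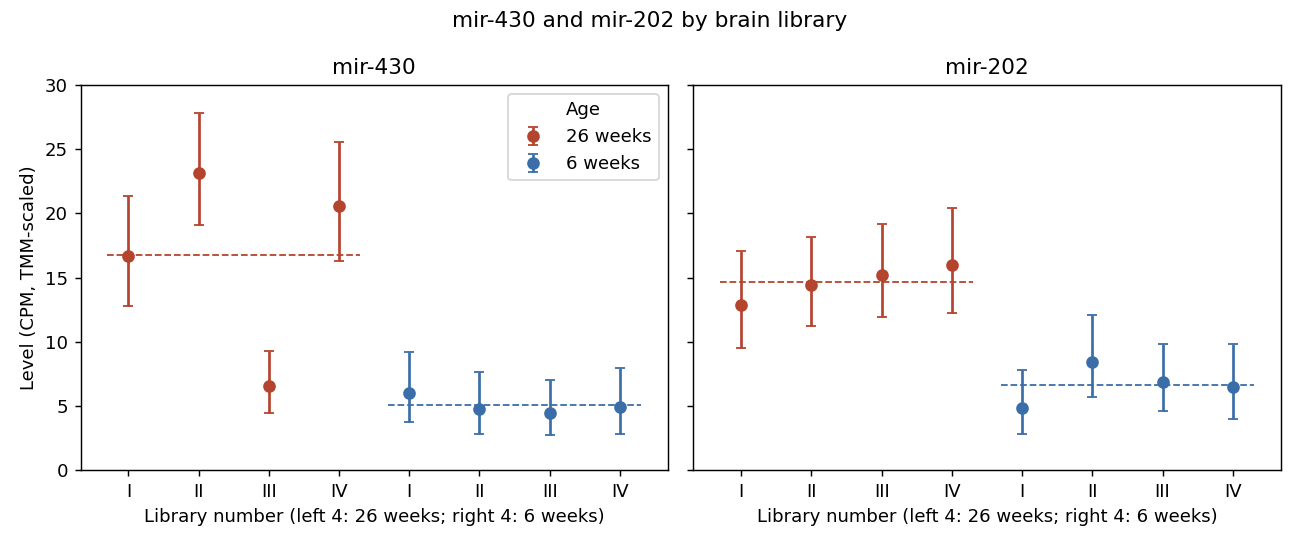
Level of mir-430 (left) and mir-202 (right) in each library in TMM-scaled CPM, with exact 95% Poisson intervals as bars and the mean of each age as a dashed line, 26 weeks left of 6 weeks. The 26-week library III holds 6.56 CPM of mir-430 against 16.6 to 23.2 CPM in the other older libraries, whereas the older libraries hold 12.9 to 15.98 CPM of mir-202.

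The spread within an age differed between the families. It also enters a call with age, so it is not independent of how they were chosen. For mir-430 the highest library was 3.53 times the lowest at 26 weeks and 1.34 times at 6 weeks. The coefficient of variation (CV) of mir-430 was 43.6% at 26 weeks and 13.3% at 6 weeks, next to medians over the 212 tested features of 27.3% and 19.2%. For mir-202 the highest library was 1.24 times the lowest at 26 weeks and 1.73 times at 6 weeks. The CV of mir-202 was 9.08% at 26 weeks and 22.0% at 6 weeks, and by CV it ranked 208 of 212 features at 26 weeks. Set against counting error alone, the chi-square per degree of freedom of mir-430 was 15.0 at 26 weeks and 0.328 at 6 weeks, where a value near 1 is what counting alone gives. That of mir-202 was 0.466 at 26 weeks and 1.13 at 6 weeks, near the counting limit at both ages. The median over tested features, most of them deeper in counts, was 27.4 at 26 weeks and 13.1 at 6 weeks. Without the 26-week library III, the other 3 older libraries had a chi-square per degree of freedom of 2.21 and a CV of 16.3% for mir-430.

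The fitted log2 fold change, 26 weeks over 6 weeks, was 1.72 ± 0.38 for mir-430 and 1.13 ± 0.23 for mir-202 (SE from edgeR's quasi-likelihood fit), or 3.30-fold and 2.19-fold. Across the 212 features that passed the expression filter, which both families did, the median log2 fold change was -0.06. Of these features 22, or 10.4%, were called higher at 26 weeks and 8, or 3.77%, lower (edgeR, Benjamini-Hochberg adjusted p threshold of 0.05). With the library number as a block 35 were called higher and 24 lower, and with total counts 15 and 12. Both families are among the 22 by the way they were chosen, so nothing is read from that. By size, the fold change of mir-430 ranked 1 and that of mir-202 ranked 9 of 212 from the highest. These ranks rest on the same values as the choice, so nothing is read from them either. In bulk tissue, more cells of a kind and more of the miRNA per cell cannot be told apart.

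**Figure D2:**
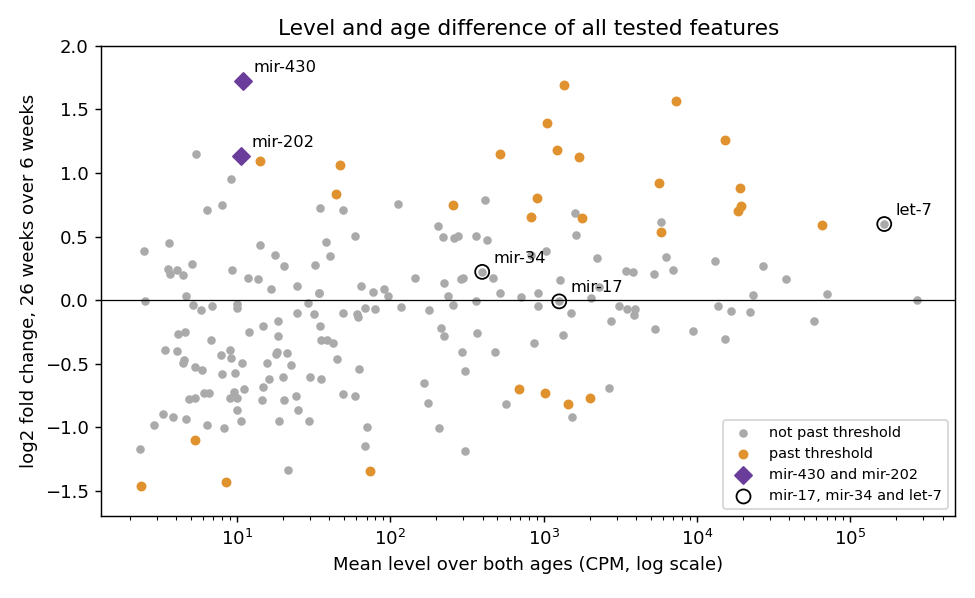
Mean level in CPM on a log axis against the log2 fold change, 26 weeks over 6 weeks, for each of the 212 tested features; orange points passed the threshold and diamonds mark mir-430 and mir-202. Both lie at the low end of the levels, at 1.72 for mir-430 and 1.13 for mir-202, while mir-17, let-7 and mir-34, ringed, did not pass.

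Without the 26-week library III, the log2 fold change of mir-430 was 2.07 ± 0.22 (SE), and its 3 remaining older libraries held 16.6 to 23.2 CPM. Leaving out any other single library gave 1.64 to 1.83 for mir-430. For mir-202 leaving out each library gave 1.01 to 1.38, lowest without the 6-week library I and highest without the 6-week library II. In all 20 alternative fits that held mir-430 and all 21 that held mir-202 the fold change was above 0. That is the sign on which the families were chosen, in these same libraries. The fit with both the log2 total count and the library number as terms moved mir-430 most, to 0.78 ± 0.61, and put mir-202 at 1.55 ± 0.47. That fit has many terms for so few libraries, which leaves few degrees of freedom. With the log2 total count as the only added term mir-430 was at 1.81 ± 0.52 and mir-202 at 0.99 ± 0.29 (SE). The 26-week libraries were deeper on the whole, so depth and age cannot be fully told apart.

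**Figure D3:**
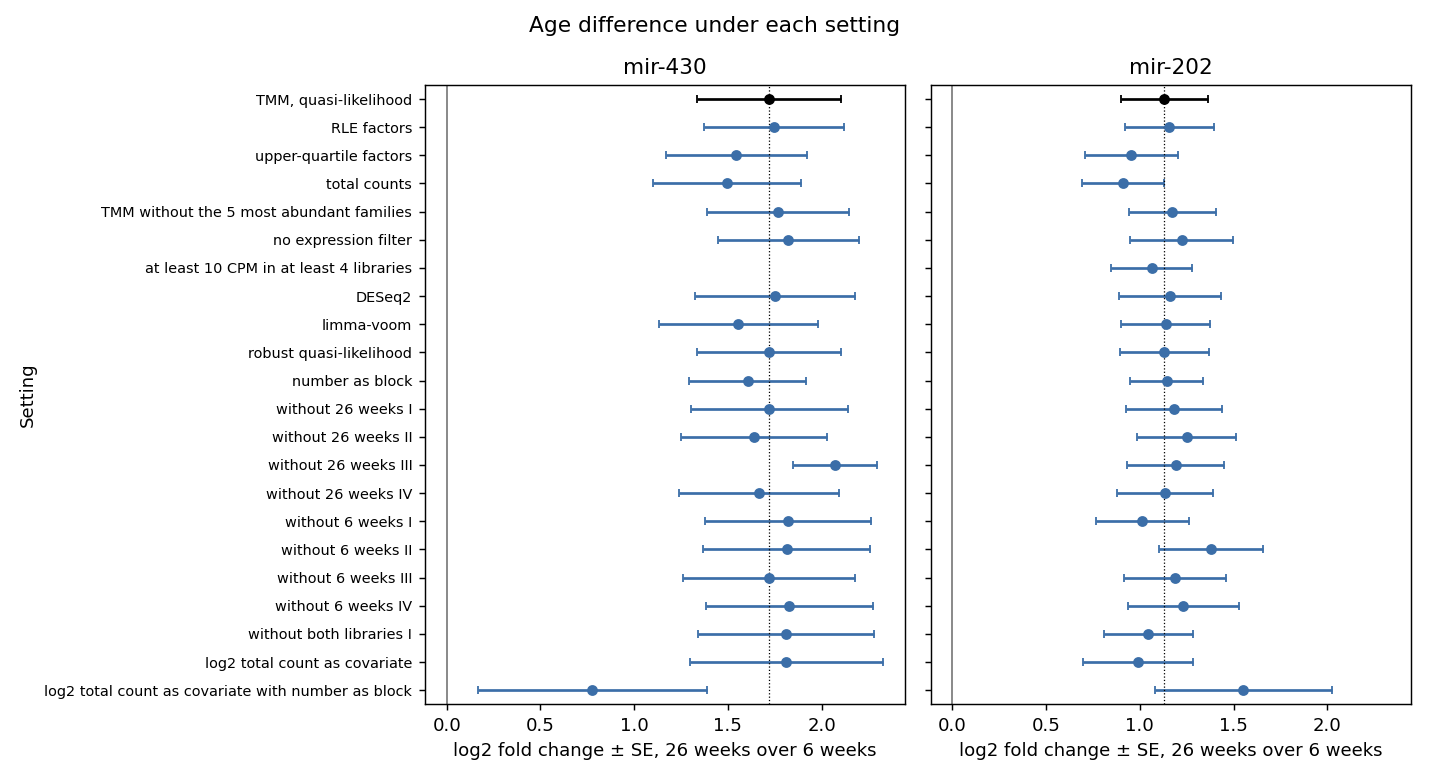
Log2 fold change, 26 weeks over 6 weeks, with its SE for mir-430 (left) and mir-202 (right) under each setting, with the value of the TMM-scaled quasi-likelihood fit as a dotted line. Every point lies above 0, the sign on which the families were chosen. Values run from 0.78 to 2.07 for mir-430 and from 0.91 to 1.55 for mir-202. The family mir-430 did not pass the minimum of 10 CPM in 4 libraries and has no point there, while mir-202 passed it through its 26-week libraries only.

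Between TMM and total-count scaling, the overlap of the ages changed for mir-430 and not for mir-202. Scaled by total counts alone, mir-430 held 18.5, 19.9, 5.79 and 17.8 CPM in the 26-week libraries I to IV, against 7.02, 5.23, 4.58 and 5.17 CPM in the 6-week libraries I to IV. The older library III then fell inside the range of the younger libraries, under the 6-week library I. For mir-202 the total-count values were 12.4 to 14.3 CPM at 26 weeks and 5.68 to 9.22 CPM at 6 weeks, with no overlap. Of the tested features, 14.2% had all older libraries above all younger ones with TMM scaling and 8.96% with total counts. By total counts the fold changes were 1.49 ± 0.40 for mir-430 and 0.91 ± 0.22 for mir-202 (log2, SE), while the median of all tested features moved to -0.29.

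**Figure D4:**
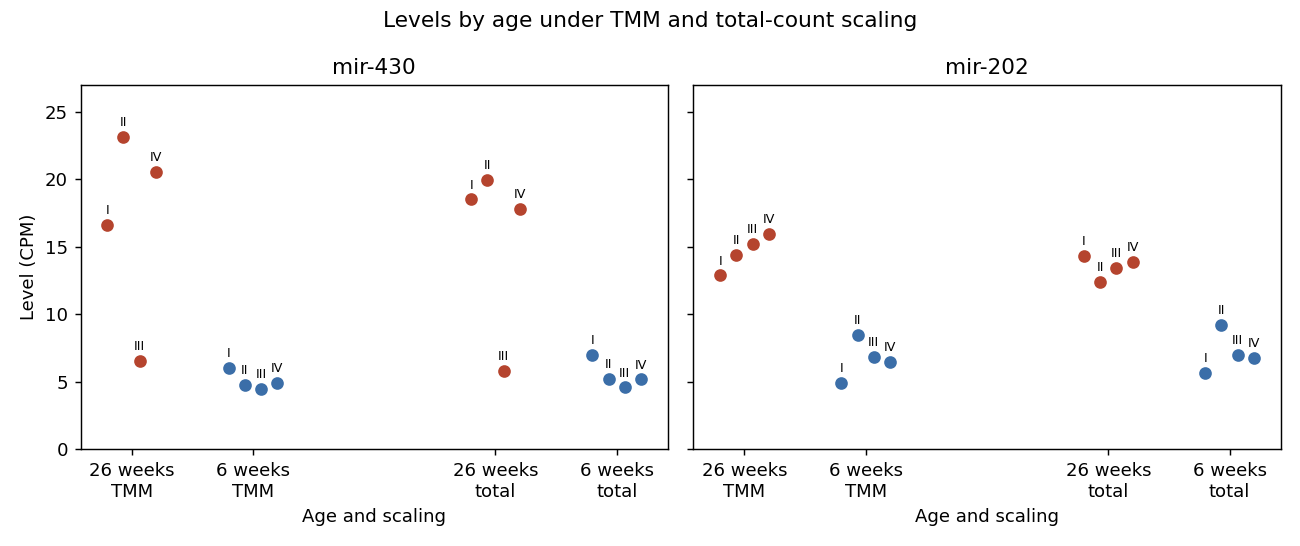
Level of mir-430 (left) and mir-202 (right) in CPM with TMM scaling and with total counts, each point 1 library labelled by its number, 26 weeks left of 6 weeks. The 26-week library III holds 5.79 CPM of mir-430 by total counts, below the 7.02 CPM of the 6-week library I, and the ages of mir-202 stay apart under both scalings.

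Libraries of the same number deviated together across features, so they were also compared number by number. For mir-430 the ratio of CPM, 26 weeks over 6 weeks, was 2.76 for number I (95% interval from counting 1.66 to 4.77), 4.84 for II (2.89 to 8.59), 1.46 for III (0.799 to 2.74) and 4.18 for IV (2.43 to 7.66). The ratio was lowest for number III and highest for number II. Each ratio sets 1 library against 1, and its interval is no test of age. For mir-202 the ratio was 2.64 for number I (1.49 to 4.89), 1.71 for II (1.10 to 2.71), 2.22 for III (1.43 to 3.55) and 2.48 for IV (1.49 to 4.28). The ratios of mir-202 were closer to each other than those of mir-430. With the number as a block, the log2 fold changes were 1.61 ± 0.31 for mir-430 and 1.14 ± 0.20 for mir-202 (SE).

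**Figure D5:**
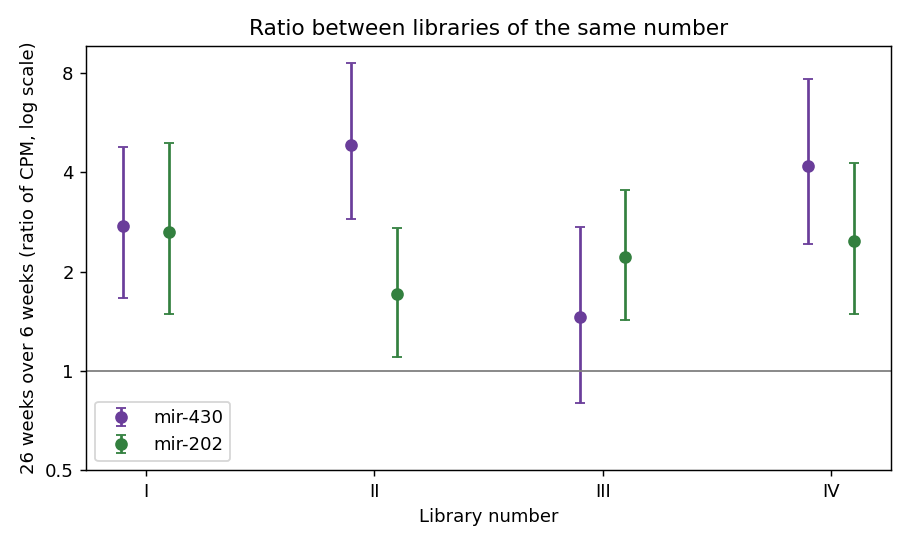
Ratio of CPM between the 26-week and the 6-week library of each number, on a log axis, with exact 95% intervals that cover counting error only. The ratio of mir-430 runs from 1.46 for number III to 4.84 for number II, and that of mir-202 from 1.71 to 2.64.

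The order of the families against each other varied between libraries. Per count of mir-202 there were 1.29, 1.61, 0.431 and 1.29 counts of mir-430 in the 26-week libraries I to IV, against 1.24, 0.567, 0.655 and 0.762 in the 6-week libraries I to IV. Thus mir-430 was the more abundant in 3 of 4 older libraries and 1 of 4 younger ones. The 95% interval of this ratio, from counting, excluded 1 in 2 of 8 libraries, the 26-week library II (1.18 to 2.19) and the 26-week library III (0.273 to 0.665), which differ in direction. Adapter ligation favours some sequences, so a ratio between families says less than its change between libraries. After each age's mean was taken off, the log2 CPM of the families had a Pearson r of -0.22 and a Spearman rho of -0.29 over the 8 libraries, given as a description. The spread of mir-202 at both ages, and of mir-430 at 6 weeks, was no larger than about what counting alone gives. So these values cannot show whether the families vary together within an age.

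Families with a related seed were looked at next. The family mir-17, known for promoting proliferation, was the only 1 of 14 listed relatives of mir-430 whose name matched a feature here. It held 1260 ± 238 CPM in 26-week libraries and 1268 ± 277 CPM in 6-week libraries (SD, n = 4 each), with a log2 fold change of -0.01 ± 0.20 (SE, edgeR, Benjamini-Hochberg adjusted p = 0.977). Its sign changed with 13 of the alternatives, among them RLE factors (0.02). Its lowest older library, 904 CPM, was library II, where mir-430 was highest. Among the 6-week libraries, mir-17 (1593 CPM) and mir-430 (6.03 CPM) were both highest in library I. The let-7 family, a regulator of developmental timing with a seed like that of the 3p arm of mir-202, held 200555 ± 48859 CPM in 26-week libraries and 132418 ± 27144 CPM in 6-week libraries (SD, n = 4 each). Its log2 fold change was 0.60 ± 0.20 and did not pass (edgeR, Benjamini-Hochberg adjusted p = 0.0889), whereas the blocked fit on library numbers put it past the threshold (adjusted p = 0.0125). By the same test, let-7 passed when either the 26-week library I (adjusted p = 0.0128) or the 6-week library III (adjusted p = 0.0353) was left out. With the log2 total as covariate, the log2 fold change of let-7 fell to 0.14 ± 0.18 (SE, edgeR, Benjamini-Hochberg adjusted p = 0.748). With that and the block it was 0.30 ± 0.20 (adjusted p = 0.710).

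Other names linked to the embryo and to germ cells were few in the table. None of the 9 listed embryo and stem cell names, such as mir-302, mir-367 and mir-427, matched a feature analysed here. Matching was by exact family name, so a name without a match is no measure of a family's level in these brains. Of 8 listed germ cell and gonad names, 3 matched: mir-34 and mir-449, which share a seed and act in ciliated cells and sperm formation in mouse, and mir-883, a name given to a testis family in rodents. In 26-week libraries mir-34 was at 428 ± 134 CPM, against 367 ± 164 CPM in 6-week libraries (SD, n = 4 each). The level of mir-449 was 316 ± 116 CPM at 26 weeks and 280 ± 57.4 CPM at 6 weeks, and that of mir-883 was 4.40 ± 2.10 and 3.74 ± 0.529 CPM (SD, n = 4 each). The log2 fold changes of mir-34, mir-449 and mir-883 were 0.22 ± 0.35, 0.17 ± 0.27 and 0.24 ± 0.36 (SE), each smaller than its SE. The median log2 fold change of the 3 was 0.22, beside -0.06 over all tested features. By edgeR with Benjamini-Hochberg adjustment 0 of 3 were called, next to 14.2% of all tested features, and 0 of 3 by edgeR at an unadjusted p under 0.05, DESeq2 or limma-voom. The sign of mir-449 changed with total counts (-0.07) and without the 26-week library III (-0.02). As background, mir-34 and mir-449 are also made in brain.

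Some of the listed markers of blood cells were called higher at 26 weeks, and their part in the levels of mir-430 and mir-202 was not tested. The leucocyte list (mir-142, mir-150, mir-155 and mir-223) had 4 of 4 members in the table, and they summed to 371 to 534 CPM at 26 weeks and 245 to 270 CPM at 6 weeks. Of these 3 rose and 0 fell (edgeR, Benjamini-Hochberg adjustment), next to 10.4% and 3.77% of all tested features: mir-142 of blood cells by 0.75 ± 0.17, mir-150 of lymphocytes by 0.84 ± 0.23 and mir-223 of myeloid cells by 1.06 ± 0.25 (log2, SE). Under total-count scaling none of the 3 passed, with log2 fold changes of 0.53 for mir-142, 0.61 for mir-150 and 0.83 for mir-223 at edgeR adjusted p (Benjamini-Hochberg) of 0.0715, 0.144 and 0.0702. With the log2 total as covariate none of them passed either, at 0.78, 0.94 and 1.27 (edgeR, Benjamini-Hochberg adjusted p = 0.102, 0.138 and 0.0933). For mir-150 this was also so under upper-quartile scaling (edgeR adjusted p by Benjamini-Hochberg, 0.0980) and when any of the 6-week libraries II to IV was left out (0.0646 to 0.0716). The remaining leucocyte family, mir-155, was not called (log2 fold change 0.45 ± 0.48, SE). The erythroid pair mir-451 and mir-144 summed to 1152 to 1311 CPM at 26 weeks and 754 to 973 CPM at 6 weeks, and mir-451 alone of the 2 was called higher. The level of mir-144 overlapped between the ages, at 480 to 579 CPM at 26 weeks and 443 to 601 CPM at 6 weeks.

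For markers of tissues near the brain or easily carried over, the ranges of the sums overlapped between the ages. Muscle families (3 of 4 listed names matched) summed to 1175 to 1604 CPM at 26 weeks and 1107 to 1319 CPM at 6 weeks. Most of that sum is mir-133, with a mean of 1344 CPM at 26 weeks and 1201 CPM at 6 weeks. The mean of mir-1 was 47.6 CPM at 26 weeks and 50.9 CPM at 6 weeks, and mir-499 was lower still. The overlap of the muscle sums is therefore mainly that of mir-133. The liver family mir-122 held 9.95 to 23.1 CPM in 26-week libraries and 16.6 to 25.5 CPM in 6-week libraries. The gut families mir-192 and mir-194 summed to 61.2 to 182 CPM and 74.4 to 97.9 CPM, the highest value being that of the 26-week library II, which also held the most mir-430. Without that library the log2 fold change of mir-430 was 1.64 ± 0.39 (SE), and a link between the gut families and mir-430 was not tested. The epithelial families mir-203 and mir-205 summed to 111 to 253 CPM at 26 weeks and 238 to 363 CPM at 6 weeks. The neuroendocrine families mir-7 and mir-375 summed to 696 to 2250 CPM at 26 weeks and 1076 to 1635 CPM at 6 weeks. Of the 10 features on these lists, 0 were called by edgeR with Benjamini-Hochberg adjustment, next to 14.2% of all tested features. DESeq2 and limma-voom also called 0 of the 10. For 1 of them, mir-205, the unadjusted edgeR p was under 0.05, and it passed in the blocked fit (edgeR, Benjamini-Hochberg adjusted p = 0.0407).

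The features whose log2 CPM followed each family most closely over the 8 libraries were different for the 2 families. For mir-430 they were mir-142 (Pearson r = 0.93), mir-338 of oligodendrocytes (0.92), mir-337 (0.90), mir-223 (0.89) and mir-219 of oligodendrocytes (0.88). For mir-202 they were mir-23 (0.96), mir-101 (0.96), mir-451 of red blood cells (0.96), mir-455 (0.95) and mir-26 (0.93). Each of these 10 was itself called higher at 26 weeks (edgeR, Benjamini-Hochberg), so the split by age enters every one of these r values. Some of these calls depended on the setting. With total counts mir-219, mir-455, mir-142 and mir-223 did not pass (edgeR, Benjamini-Hochberg adjusted p = 0.0579, 0.0567, 0.0715 and 0.0702), and with upper-quartile factors mir-455 and mir-26 did not (0.0622 each). With the log2 total as covariate mir-338, mir-219 and mir-101 passed and the others did not (edgeR, Benjamini-Hochberg adjusted p from 0.0654 for mir-451 to 0.223 for mir-455). By the same measure mir-202 ranked 17 among the features nearest to mir-430 (r = 0.74), and mir-430 ranked 34 among those nearest to mir-202.

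With the age means taken off, the 5 nearest to mir-430 were mir-205 (Pearson r = 0.88), mir-338 (0.87), mir-425 (0.83), mir-146 (0.82) and mir-142 (0.75), over 8 libraries. Spearman's rho was lower for mir-146 (0.38) and mir-142 (0.43) than for mir-205 (0.71), mir-338 (0.83) and mir-425 (0.83). Pearson's r here leans on the low mir-430 of the 26-week library III, so features low in that library were favoured by the choice. The family mir-205 held 131, 191, 57.1 and 133 CPM in the 26-week libraries I to IV, against 246, 295, 193 and 166 CPM in the 6-week libraries. The inflammation-linked family mir-146 held 242, 280, 116 and 375 CPM in the 26-week libraries I to IV, against 220, 275, 319 and 227 CPM in the 6-week libraries. Their log2 fold changes did not pass, unlike those of mir-338 and mir-142 (edgeR, Benjamini-Hochberg). For mir-202 the nearest by these deviations were pred_488 (0.84), mir-199 (0.79), mir-6720 (0.79), mir-456 (0.74) and mir-458 (0.74), and its deviations were near the counting limit. Spearman's rho was lower for mir-6720 (0.48) and mir-456 (0.57) than for pred_488 (0.76), mir-199 (0.81) and mir-458 (0.67). Among the 6-week libraries, mir-202 and each of these features were lowest in library I.

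The nearest features in abundance were set beside the pair. The pair was chosen for being higher at 26 weeks and these features were not, so nothing is read from a difference in direction. Just above mir-430 in mean CPM was pred_532, with 8.50 ± 13.5 CPM in 26-week and 13.6 ± 16.7 CPM in 6-week libraries (SD, n = 4 each). Between mir-430 and mir-202 lay mir-315, with 8.88 ± 1.99 CPM in 26-week and 12.6 ± 3.03 CPM in 6-week libraries. Just below mir-202 was the sensory organ family mir-96a, with 7.25 ± 3.46 CPM in 26-week and 13.96 ± 3.37 CPM in 6-week libraries. Their log2 fold changes were -0.70 ± 1.17, -0.50 ± 0.27 and -0.95 ± 0.35 (SE), and none of the 3 passed (edgeR, Benjamini-Hochberg adjusted p of 0.745, 0.244 and 0.114). The sign of pred_532 turned without the 6-week library I (0.65) and with the log2 total as covariate (1.41). In the blocked fit mir-96a passed (edgeR, Benjamini-Hochberg adjusted p = 0.0407), as it did once the 26-week library I was left out (adjusted p = 0.0158). With the log2 total as covariate mir-96a was at -0.44 ± 0.35 (SE, edgeR, Benjamini-Hochberg adjusted p = 0.517). With that and the block it was at -0.03 ± 0.48 (adjusted p = 0.988).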

How the data were processed

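Total brain RNA was made into libraries with Illumina's TruSeq kit for small RNAs (per the labels' protocols). SAMtools 1.3.1-9, BWA 0.7.12-r1039, Trimmomatic 0.36 and bcl2fastq 1.8.4 are named in the submitters' processing notes, with no roles. The table deposited by the authors holds raw counts, in whole numbers, for each family or predicted miRNA. Not given in the sources used here: the build, the annotation, the counting tool and the handling of multi-mapping reads. Columns were matched to samples by title and grouped by the age label.

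The members and lists were chosen with earlier results of these data known. Lists were matched by exact family name. Counts were analysed in R 4.3.3 with edgeR 4.0.16 (quasi-likelihood, two-sided, TMM, filterByExpr, no covariate, all 8 libraries), limma 3.58.1 and DESeq2 1.42.0. The filter left out 112 features with 0.00948% of counts. For edgeR fits, SE is the absolute log2 fold change over the square root of F. For DESeq2 it is the SE the tool reports, and for limma-voom the absolute ratio of log2 fold change to t. Log2 CPM used a prior count of 2. The fit was tested on simulated data. The simulated counts held no effect of library number, unlike the libraries here, so that test does not cover such an effect.

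Named families were the members, those on the lists, the 5 nearest to each member by Pearson r of log2 CPM and of deviations from age means, and the neighbours in mean CPM. Deviations of libraries with the same number correlated by 0.287 to 0.528 across features, above the limit of 0.1. The numbers were therefore taken to pair the libraries in the ratios by number and in the blocked fit. The edgeR fit with no covariate, used where no other setting is named, left the numbers out. What a number marks is not in the labels. No 2 libraries of an age were near copies (chi-square per degree of freedom at least 131). Alternatives were other scalings, filters, tools, the block, a depth covariate and leaving out libraries.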

Additional observations from a re-analysis of the deposited data

Results flagged for a closer look

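In groups of 4 libraries, a value was marked where its gap to the nearest other library, over the range of the group, exceeded Dixon's 95% critical value. Of 88 groups over the named families 8 were marked, and chance gives about 1 in 20, or 4.4. Neither mir-430 nor mir-202 was among them.

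The seed relative mir-17 stood at 9.82 on the log2 CPM scale in the 26-week library II and at 10.40 to 10.45 in the remaining older ones. For mir-124, on the same scale, the 26-week library III was at 13.41 and the others at 12.58 to 12.65. The gut family mir-192 was at 7.35 in the 26-week library II and at 5.63 to 5.76 in the others. In the 26-week library I, mir-1 was at 6.54 (others 4.91 to 5.18), mir-199 at 9.51 (others 9.95 to 9.98) and mir-456 at 5.91 (others 6.36 to 6.44). In the 6-week library I, mir-375 was at 4.30 (others 8.80 to 9.50) and mir-150 at 5.48 (others 4.78 to 4.89).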

How the results depend on the processing

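The fold changes of mir-430 and mir-202 stayed above 0, the sign on which they were chosen, in every alternative that could fit them. They moved by more than the spread between libraries in 3 cases: with the log2 total count and the block (0.78 for mir-430 and 1.55 for mir-202) and, for mir-202, without the 6-week library II (1.38). Leaving out single libraries gave 1.64 to 2.07 for mir-430 and 1.01 to 1.38 for mir-202. Log2 CPM of both families in each library moved by less than the spread within its age with a prior count of 0.5. The 30 features called became 59 with the library number as a block, 50 with both libraries I left out, 4 with the log2 total count as covariate and 0 with that and the block (edgeR; 24 at an unadjusted p under 0.05, and 38 by DESeq2 and 31 by limma-voom without these terms), and 23 to 47 without single libraries, the highest without the 26-week library I; the cause was not tested. The fit with both the log2 total count and the block leaves few degrees of freedom. Total counts gave 15 higher and 12 lower calls, and upper-quartile factors 15 and 11. The block changed the call of let-7, mir-96a and mir-205 among the families described, and no call of the other families whose fold changes are given. Signs changed for mir-17 with RLE factors (0.0199), TMM when the top 5 families were left out (0.0402), no filter (0.10), DESeq2 (0.0198), both libraries I left out (0.0398), the depth covariate (0.11) and single libraries left out (-0.0629 to 0.25). They changed for mir-449 with total counts (-0.0679), the depth covariate (-0.12) and single libraries left out (-0.0226 to 0.44), and for pred_532 with the depth covariate (1.41), that and the block (0.24) and single libraries left out (-2.90 to 0.65). With the depth covariate and the block, mir-883 was at -0.39 and mir-155 at -0.66.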
